A study of Mus musculus with 6 samples.

Results

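The 10 genes described here belong to 2 connected stress programmes, the ATF4 arm of the integrated stress response (Atf4, Atf5, Ddit3, Trib3, Asns, Chac1 and Ppp1r15a) and the XBP1 arm of the unfolded protein response (Xbp1, Herpud1 and Dnajb9). These genes, and the wider lists below, were chosen by gene symbol with earlier results of these data known. Counts set beside shares of all genes are therefore description only. All 10 had 1 transcript cluster of their own (the group of probes that stands for a gene on the array) among the 29458 genes compared. The study profiled mRNA bound to tagged ribosomes in brains of CD11brGFP transgenic mice aged 2 to 3 months. All mice of both groups carried Flag/EGFP-RPL10a, a tagged ribosomal protein, driven by the promoter of CD11b, an integrin of microglia, macrophages, monocytes and neutrophils. The control group held 3 arrays from sham-operated mice, and the stroke group held 3 arrays from mice taken 24 h after tMCAO, a transient occlusion of the middle cerebral artery. Each group had 6 mice and 3 biological replicates per the labels, which do not say how many mice stand behind an array and contradict each other on whether females were used.

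In the integrated stress response, kinases that sense misfolded protein, amino acid shortage, viral RNA or heme shortage phosphorylate the translation factor eIF2, which slows most protein synthesis while the Atf4 mRNA is translated more. ATF4 then induces genes of amino acid supply, the transcription factor CHOP (encoded by Ddit3) and a phosphatase subunit that helps to reverse the block. In the unfolded protein response, the sensor IRE1 removes a short intron from Xbp1 mRNA in the cytoplasm, and the protein made from the cut mRNA, with ATF6, induces chaperones and machinery that degrades misfolded proteins of the endoplasmic reticulum (ER). Herpud1 is placed in the XBP1 arm here, although ATF6 and ATF4 are also known to induce it. Both programmes are known to be engaged in brain tissue after ischaemia. The arrays give 1 value per gene, so cut and uncut Xbp1 mRNA were not separated. RNA not bound to ribosomes was not profiled as a sample of its own.

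The promoter windows below are shown because they hold short letter patterns that the factors of the 2 arms are known to bind. They are from RefSeq on GRCm38.p6, run 5′ to 3′ along the gene from 250 bases before to 50 bases after the annotated start site, and all 10 genes matched a window (11 windows, with 2 start sites for Atf5). The patterns searched on both strands were the core of the ATF4 composite element (TGATGNAA), the cAMP response element (TGACGTCA), the unfolded protein response element (TGACGTGG), the ER stress response element (CCAAT, then any 9 bases, then CCACG) and its type II form (ATTGG, any 1 base, CCACG). Capitals mark a match. On the same assembly the genes without a printed window are Atf4 (chr15:80255184-80257545), Atf5 (chr7:44812256-44816658), Ddit3 (chr10:127290793-127296291), Xbp1 (chr11:5520641-5525993) and Dnajb9 (chr12:44205897-44210068).
Chac1 (chr2:119350992-119351291, plus strand): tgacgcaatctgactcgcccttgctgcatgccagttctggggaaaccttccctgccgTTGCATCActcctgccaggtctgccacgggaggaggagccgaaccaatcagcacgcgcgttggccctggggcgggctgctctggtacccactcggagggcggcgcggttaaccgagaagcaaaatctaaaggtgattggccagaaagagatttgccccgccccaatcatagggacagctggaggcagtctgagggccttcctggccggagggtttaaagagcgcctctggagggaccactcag
Asns (chr6:7693160-7693459, minus strand): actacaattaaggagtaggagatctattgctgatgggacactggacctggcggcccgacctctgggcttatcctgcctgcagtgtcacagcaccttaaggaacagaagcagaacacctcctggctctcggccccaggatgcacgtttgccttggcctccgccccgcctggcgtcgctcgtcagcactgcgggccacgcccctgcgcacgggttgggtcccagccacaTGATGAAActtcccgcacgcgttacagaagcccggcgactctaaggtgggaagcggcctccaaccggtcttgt
Trib3 (chr2:152344011-152344310, minus strand): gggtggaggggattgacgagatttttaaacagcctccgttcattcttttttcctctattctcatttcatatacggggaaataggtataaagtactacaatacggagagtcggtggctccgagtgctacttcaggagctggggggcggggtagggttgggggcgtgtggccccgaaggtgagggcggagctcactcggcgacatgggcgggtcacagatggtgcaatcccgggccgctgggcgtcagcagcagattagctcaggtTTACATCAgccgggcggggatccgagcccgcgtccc
Herpud1 (chr8:94386179-94386478, plus strand): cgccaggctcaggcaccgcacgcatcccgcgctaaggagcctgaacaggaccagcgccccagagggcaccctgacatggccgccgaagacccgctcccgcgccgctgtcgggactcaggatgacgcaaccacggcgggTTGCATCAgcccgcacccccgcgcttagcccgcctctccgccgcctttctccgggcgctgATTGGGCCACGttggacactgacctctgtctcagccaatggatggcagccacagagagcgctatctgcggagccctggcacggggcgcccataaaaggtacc
Ppp1r15a (chr7:45526219-45526518, minus strand): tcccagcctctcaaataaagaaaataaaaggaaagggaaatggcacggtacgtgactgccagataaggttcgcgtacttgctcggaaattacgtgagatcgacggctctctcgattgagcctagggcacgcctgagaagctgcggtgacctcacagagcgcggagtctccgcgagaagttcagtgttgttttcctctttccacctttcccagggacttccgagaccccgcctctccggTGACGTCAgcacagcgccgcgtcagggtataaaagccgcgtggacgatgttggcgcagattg

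The ATF4 composite core was found in the windows of 4 of the 10 genes (Trib3, Asns, Chac1 and Herpud1) and in 3.97% of all 32851 promoter windows of this length. In Chac1 it lay from base -193 to -186 before the start site and in Herpud1 from -112 to -105, both on the opposite strand. In Asns it lay from -23 to -16 on the gene's own strand, and in Trib3 from base 15 to 22 after the start, on the opposite strand. Herpud1 alone of the 10 also held the type II ER stress element, from -52 to -42, which 0.0365% of all windows held. The 2 matches in Herpud1 did not overlap. Ppp1r15a held the cAMP response element from -12 to -5 (1.79% of all windows). The unfolded protein response element (0.676% of all windows) and the longer ER stress element (0.119%) were found in 0 of the 10 genes. A match is a run of letters and not a measured binding site, and the windows of Atf4, Atf5, Ddit3, Xbp1 and Dnajb9 held none of these 5 patterns.

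**Figure D1:**
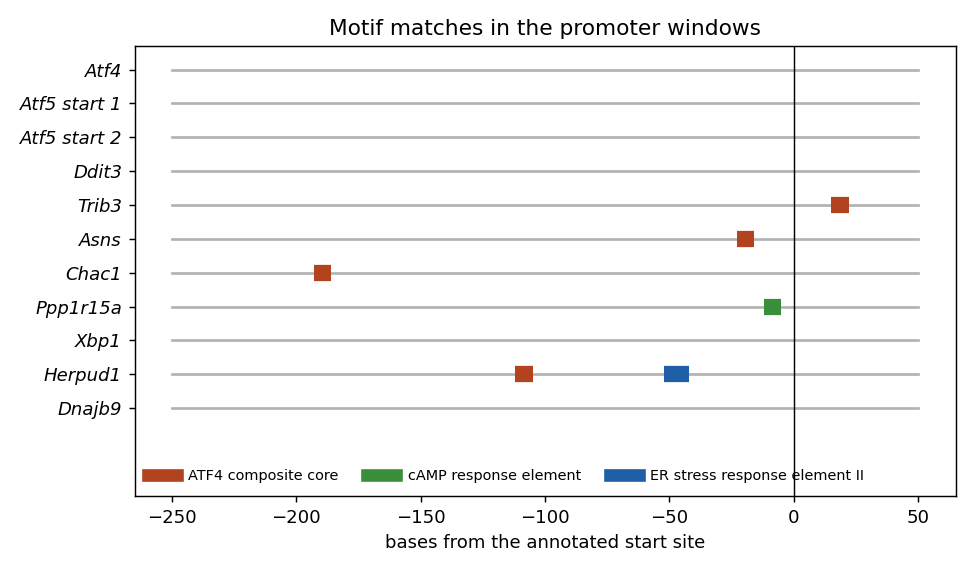
Each grey line is a promoter window of 1 start site, drawn from 250 bases before to 50 bases after the annotated start (x axis, in bases), and coloured blocks are matches to the named patterns. Trib3, Asns, Chac1 and Herpud1 hold the ATF4 composite core, and Herpud1 also holds the type II ER stress element.

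The comparison of stroke with control asks whether these stress genes had more or less mRNA in the tagged-ribosome samples a day after the occlusion. None of the 10 passed the threshold (limma, adjusted p under 0.05 over all 29458 genes), by which 0.424% of all genes were called. Mean log2 signal was higher in stroke for 9 of the 10, as it was for 47.2% of all genes, and the median difference was 0.19, against -0.01 over all genes. At an unadjusted p under 0.05, 3 of the 10 were higher (Atf5, Chac1 and Ppp1r15a) and 0 were lower, where 3.69% and 2.07% of all genes were. In the same 3 genes the 3 stroke arrays lay above the 3 control arrays, which held for 6.34% of all genes; in 0 of the 10 they all lay below (4.89% of all genes). These 3 belong to the ATF4 arm, and the groups overlapped in the other 4 genes of that arm and in all 3 genes of the XBP1 arm. In bulk RNA of this kind, fewer cells of a type and less RNA per cell cannot be told apart.

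Array medians over all clusters lay between 5.23 and 5.35 (log2), and having 3 arrays a group limits precision throughout. On the first principal component, array 2 of control (48.89) and array 2 of stroke (34.61) were separated from the other 4 arrays (-26.61 to -14.44). Markers of neurons (8 genes) averaged 11.18 to 11.33 in the 6 arrays and those of oligodendrocytes (8 genes) 10.28 to 10.54, far above the array medians, so genes typical of other cell types gave signal in this RNA. The signal of the 10 stress genes can therefore not be assigned to tagged ribosomes of CD11b cells alone. Microglial markers (8 genes, among them P2ry12, Tmem119 and Cx3cr1) averaged 6.95 to 7.24 in control and 7.23 to 7.40 in stroke, so their groups overlapped. Of the 8, 6 were higher and 2 lower in stroke, where 47.2% of all genes were higher. Their differences ran from -0.398 for P2ry12 to 0.997 for Fcrls. The 8 astrocyte markers averaged 9.21 to 9.36 in control and 9.57 to 9.67 in stroke. The 8 monocyte and macrophage markers averaged 4.77 to 4.88 and 5.25 to 5.52, and the 8 neutrophil markers 4.16 to 4.47 and 4.62 to 4.75. In these last 3 lists 1 of 24 genes, Cd44, rose by the same test (limma adjusted p = 0.0127), as did 0.421% of all genes. It did not pass without stroke replicate 1 (0.0624), without stroke replicate 3 (0.0783) or without both arrays numbered 2 (0.0654). All but 1 of the 24 (Camp) were higher in stroke (47.2% of all genes), and the groups of list means did not overlap. Gene by gene, all stroke arrays lay above all control arrays in only part of each list (6.34% of all genes). These were 4 of 8 astrocyte, 5 of 8 monocyte and macrophage and 3 of 8 neutrophil markers. The neutrophil means, and the control means of the monocyte and macrophage markers, lay below the array medians. Without detection calls they are not shown to be above background. With the replicate number as a block, the neutrophil genes S100a8 and S100a9 passed as well (limma adjusted p = 0.0165 and 0.0432, against 0.111 and 0.257 without it). The part of these markers in the differences of the stress genes was not tested.

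Within the ATF4 arm, Atf4 encodes the transcription factor that gives the arm its name. Its signal was 9.38, 9.72 and 9.40 in control arrays 1, 2 and 3 and 9.68, 9.88 and 9.68 in stroke arrays 1, 2 and 3. Control array 2 lay above stroke arrays 1 and 3, so the groups overlapped, while each stroke array lay above the control array of the same number. The difference was 0.25 ± 0.15 (log2, SE; adjusted p = 0.9998 by limma), a fold of 1.19 with a 95% interval from 0.934 to 1.51. Because ATF4 protein is set largely by translation of this mRNA, its amount is not given by these values.

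Atf5, a related bZIP factor whose mRNA is likewise translated more when eIF2 is phosphorylated, showed the largest difference of the 10. Its signal was 7.60, 7.55 and 7.29 in the control arrays and 8.13, 8.18 and 7.89 in the stroke arrays. All stroke arrays lay above all control arrays, and the differences between arrays of the same number were 0.53, 0.63 and 0.60. The mean difference was 0.58 ± 0.15 (log2, SE), 1.499-fold with an interval from 1.18 to 1.91. It had an unadjusted p of 0.0046 and did not pass over all genes (limma adjusted p = 0.336). With the standard error of Atf5, a difference of 0.96, or 1.94-fold, would have been needed to pass.

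Chac1, an enzyme that degrades glutathione and a target of the ATF4 and CHOP branch, was at 6.97, 6.88 and 6.63 in control and 7.11, 7.47 and 7.18 in stroke. The groups did not overlap, although stroke array 1 lay only 0.14 above control array 1. The difference was 0.43 ± 0.16, or 1.35-fold (interval 1.05 to 1.74), with a limma adjusted p of 0.744. Ppp1r15a (GADD34), a regulatory subunit of the phosphatase that removes phosphate from eIF2, was at 7.08, 6.77 and 6.97 in control and 7.26, 7.19 and 7.42 in stroke. Every stroke value again exceeded every control value. The difference was 0.35 ± 0.14, or 1.27-fold (interval 1.01 to 1.60; limma adjusted p = 0.840).

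**Figure D2:**
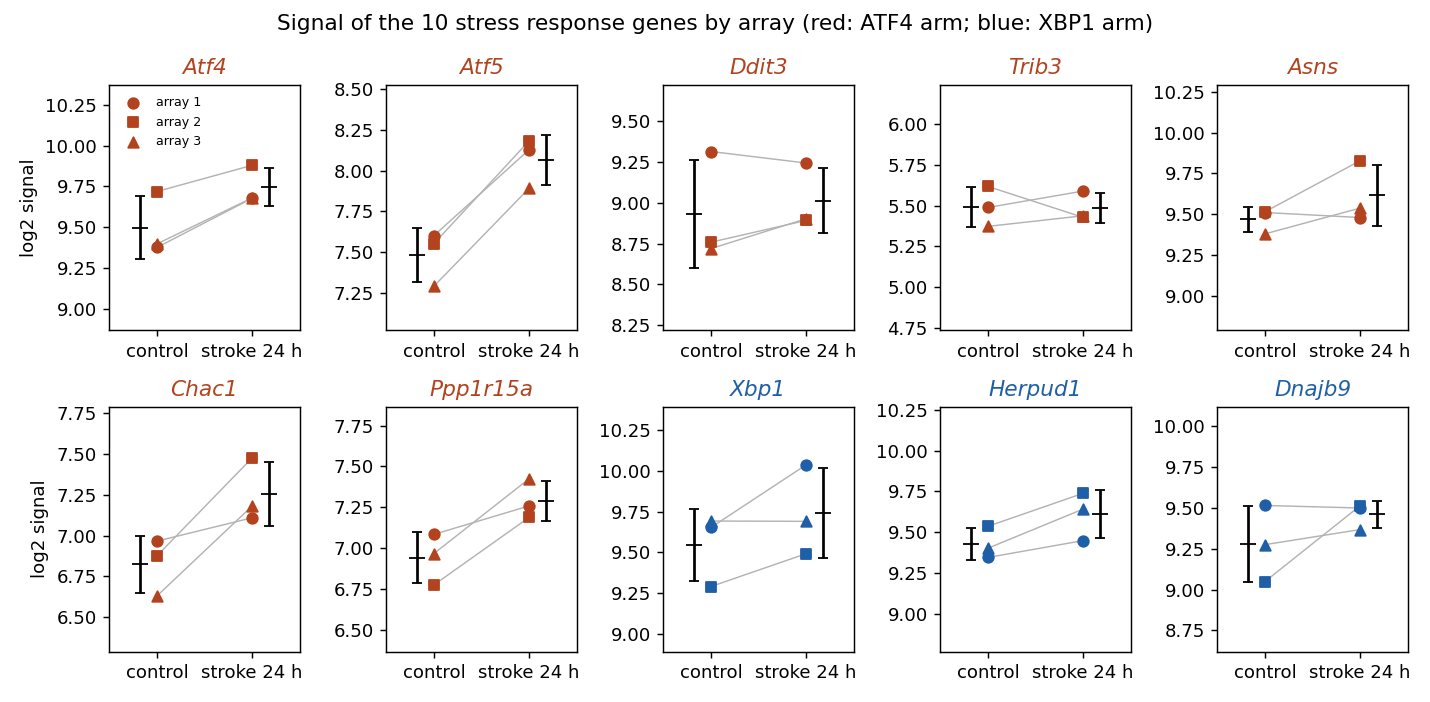
Each panel shows 1 gene's log2 signal (y axis, the same span in every panel) in the 3 control and 3 stroke arrays, with grey lines between arrays of the same number and black bars for the mean ± SD of a group. The stroke arrays lie above all control arrays for Atf5, Chac1 and Ppp1r15a, and the groups overlap for the other 7 genes.

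The other 3 genes of the ATF4 arm showed smaller differences. Ddit3, which encodes CHOP, a factor linked to cell death under lasting ER stress, was at 9.31, 8.76 and 8.72 in control and 9.24, 8.89 and 8.90 in stroke. The arrays numbered 1 were the highest of both groups, and this split was wider than the difference between the groups. The group difference was 0.08 ± 0.20 (1.06-fold, interval 0.772 to 1.45), and it turned below 0 with array weights and without control replicate 2, control replicate 3 or stroke replicate 1 (-0.03 at the lowest).

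Asns, the enzyme that makes asparagine and a standard target of ATF4, was at 9.51, 9.51 and 9.38 in control and 9.48, 9.83 and 9.54 in stroke. Stroke array 2 stood above the other 5 arrays, while stroke array 1 lay below control arrays 1 and 2. The difference of means was 0.15 ± 0.14 (1.11-fold, interval 0.879 to 1.39), and 0.04 without stroke replicate 2. In the authors' deposited table, the averages of Asns are equal at 9.51. Those averages matched Tukey biweights, which give little weight to a value far from the median, within 0.00448 for the 10 genes. The biweight difference for Asns was -0.0028. For Chac1 it was 0.30, below the 0.43 of the means. In the rest of the arm it was 0.57 for Atf5, 0.32 for Ppp1r15a, 0.29 for Atf4, 0.16 for Ddit3 and -0.06 for Trib3.

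Trib3, a pseudokinase that CHOP and ATF4 induce and that in turn dampens their activity, was at 5.49, 5.62 and 5.37 in control and 5.59, 5.43 and 5.44 in stroke. These values sit close to the array medians, and without detection calls they are not shown to be above background. The difference was -0.01 ± 0.13 (0.994-fold, interval 0.803 to 1.23), and its sign changed with the normalization and the arrays used.

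In the XBP1 arm the 3 differences of means lay close together, from 0.18 to 0.19, but not those of the Tukey biweights, at 0.050 for Xbp1, 0.21 for Herpud1 and 0.23 for Dnajb9. Xbp1 itself was at 9.65, 9.29 and 9.69 in control and 10.04, 9.49 and 9.69 in stroke. The arrays numbered 2 were the lowest of both groups, and stroke array 1 was the highest of the 6. The difference was 0.19 ± 0.19 (1.14-fold, interval 0.850 to 1.54; limma adjusted p = 0.9998), and it ranged from 0.05 without stroke replicate 1, and 0.07 without control replicate 2, to 0.32 without stroke replicate 2.

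Herpud1, an ER membrane protein that helps pass misfolded proteins to degradation, was at 9.35, 9.54 and 9.40 in control and 9.45, 9.74 and 9.64 in stroke. Stroke array 1 lay below control array 2, while each stroke array exceeded the control array of the same number, by 0.10, 0.20 and 0.24. The difference was 0.18 ± 0.14 (1.13-fold, interval 0.908 to 1.42), and it was 0.12 without stroke replicate 2. Dnajb9 (ERdj4), an ER co-chaperone that works with the chaperone BiP, was at 9.51, 9.05 and 9.27 in control and 9.50, 9.51 and 9.37 in stroke. Control array 1 was as high as stroke arrays 1 and 2, and control array 2 was the lowest of the 6. The difference was 0.18 ± 0.16 (1.13-fold, interval 0.884 to 1.45), and it was 0.30 without control replicate 1, 0.06 without control replicate 2 and 0.04 without both arrays numbered 2.

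Set side by side, the 2 arms differed little. The median difference between stroke and control was 0.25 over the 7 genes of the ATF4 arm, with a range from -0.01 to 0.58. It was 0.18 over the 3 genes of the XBP1 arm, with a range from 0.18 to 0.19. Relative to the control mean of each gene, the ATF4 arm averaged 0.26, 0.32 and 0.20 in stroke arrays 1, 2 and 3, and the XBP1 arm 0.24, 0.16 and 0.15. The excess of the ATF4 over the XBP1 arm was 0.02, 0.16 and 0.05 in the stroke arrays and 0.01, 0.15 and -0.16 in the control arrays. These values overlapped between the groups, and the mean excess in stroke, 0.08 ± 0.07 (SD, n = 3 arrays), was smaller than the SD of 0.16 among the control arrays. All 10 upper bounds of the 95% intervals lay below a 2-fold rise; the highest was that of Atf5, at 1.91-fold, and the lowest that of Trib3, at 1.23-fold. For the 10 genes, the smallest fold that would have passed the threshold lay between 1.80 (Trib3) and 2.38 (Ddit3), so differences of the size measured here were not detectable over all genes with 3 arrays a group. With the replicate number as a block, standard errors were smaller (0.10 for Atf4 and for Atf5), the smallest passing fold lay between 1.73 (Atf5) and 2.02 (Dnajb9), and again 0 of the 10 passed (limma; Atf5, Chac1 and Ppp1r15a at an unadjusted p under 0.05), with Atf5 at an adjusted p of 0.108.

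**Figure D3:**
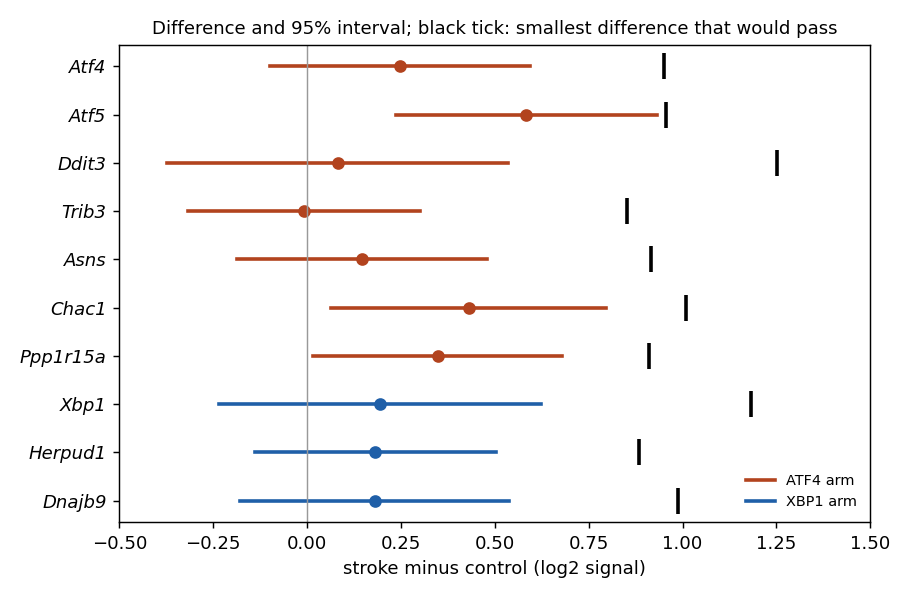
Points are the differences between stroke and control (x axis, log2 signal) of the 10 genes, lines their 95% intervals from limma with 3 arrays a group, and black ticks the smallest difference that would have passed the threshold at each gene's standard error. Intervals of Atf5, Chac1 and Ppp1r15a exclude 0, and all 10 points lie left of their tick.

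The genes also differed in how they varied among arrays of the same group. Atf4, Asns and Herpud1 were highest in array 2 of both groups, though Asns only slightly so in control. Xbp1 and Ppp1r15a were lowest in array 2 of both groups, and Ddit3 was highest in array 1 of both groups. The genes most like Atf4 over the 6 arrays were Eif1, Bhlhe40 and Serpind1 (Pearson r of 0.997, 0.992 and 0.990), the highest of 12782 genes of at least median signal. For Xbp1 they were Cab39l, Pkp2 and Pld1 (r of 0.999, 0.997 and 0.992). The 6 arrays combine both groups and include the pair numbered 2 that stood apart, and none of these 6 genes passed the threshold (limma).

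The wider pathway was described with 8 lists of other ATF4, XBP1 and ATF6 genes, of which 120 of 124 genes had a cluster of their own; Aars, Pdia4, Srp54a and Bloc1s1 share theirs with other symbols and were left out. Of these, 2 rose, 0 fell and 118 did not pass (limma, by which 0.421% of all genes rose and 0.00339% fell). In stroke 97 of 120 were higher (47.2% of all genes), with a median of 0.14 (-0.01 over all genes). At an unadjusted p under 0.05 (limma), 22 of the 120 were higher and 0 lower (3.69% and 2.07% of all genes). All stroke arrays lay above all control arrays in 35 of the 120 and below them in 1 (6.34% and 4.89% of all genes). Both genes that rose, Atf3 and Nupr1, are on the list of ATF4 and CHOP targets of signalling and stress. In that list 18 of 20 did not pass. At an unadjusted p under 0.05 (limma), 7 of these 20 were higher and 0 lower (3.69% and 2.07% of all genes). In 8 of the 20 all stroke arrays lay above all control arrays (6.34% of all genes). Atf3, a bZIP repressor induced by ATF4 and by many other signals, was at 6.09, 6.39 and 6.66 in control and 8.10, 9.003 and 8.46 in stroke. No control value came near a stroke value. Its difference was 2.14 ± 0.25, or 4.41-fold (limma adjusted p = 0.0167), and it did not pass without control replicate 1 (adjusted p = 0.0981) or stroke replicate 3 (0.0796), nor without both arrays numbered 2 (0.0511).

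Nupr1, a small stress-induced chromatin protein, was at 8.03, 8.09 and 7.90 in control and 8.91, 8.77 and 8.97 in stroke. The gap between the groups was several times the spread within either. Its difference was 0.88 ± 0.13, or 1.84-fold (limma adjusted p = 0.0436), but it did not pass with the replicate block (0.0589), with quantile normalization (0.0514) or without any 1 of the 6 arrays (0.0801 to 0.243). Eif4ebp1, which encodes the translation repressor 4E-BP1 and is named here because it passed with the replicate block (adjusted p = 0.0471), was 1.83-fold higher (0.87 ± 0.16) and did not pass in the fit without the block (0.0897), though it did with array weights (0.0395).

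Of the 19 ATF4 targets of amino acid synthesis and transport, 0 passed (limma). In stroke 18 were higher (47.2% of all genes), and the median difference was 0.35. At an unadjusted p under 0.05, 6 were higher (3.69% of all genes), and in 10 of the 19 all stroke arrays lay above all control arrays (6.34% of all genes). Shmt2, a mitochondrial enzyme of serine and glycine metabolism, was at 7.57, 7.45 and 7.38 in control and 7.97, 8.33 and 8.499 in stroke, a difference of 0.80 ± 0.17 (1.74-fold; adjusted p = 0.168). Slc7a11, the cystine importer, was at 8.15, 7.27 and 8.25 in control and 8.77, 8.29 and 8.496 in stroke (0.63 ± 0.27, 1.55-fold; adjusted p = 0.851). The groups did not overlap in either gene, though control array 2 of Slc7a11 lay far below its other values, and its difference was 0.32 without it. The list means of the astrocyte, monocyte and macrophage, and neutrophil markers were also higher in the stroke arrays. The part of these markers here was not tested. Of the 12 measured tRNA synthetase genes, 0 passed (0 also at an unadjusted p under 0.05), with a median of 0.13; Iars and Tars had the largest differences, 0.26 and 0.24, and that of Iars was 0.16 without array 2 of either group and 0.06 without both.

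Among 17 genes of ER stress sensors, eIF2 kinases and the eIF2 complex, 0 passed (limma) and the median was 0.07. At an unadjusted p under 0.05, 2 of the 17 were higher and 0 lower (3.69% and 2.07% of all genes). Eif2ak2, the eIF2 kinase PKR that senses double-stranded RNA and is itself induced by interferon, was at 5.17, 4.71 and 5.66 in control and 6.09, 5.85 and 6.20 in stroke (0.86 ± 0.24, 1.82-fold; adjusted p = 0.401). Its control values lie near the array medians. Eif2s1, the alpha subunit of eIF2, differed by 0.31 ± 0.13 (limma adjusted p = 0.855). In both genes all stroke arrays lay above all control arrays (6.34% of all genes).

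On the side of XBP1 and ATF6, 0 of 15 chaperone and folding genes passed (limma), and their median of 0.04 was the lowest of the 8 lists. At an unadjusted p under 0.05, 1 of the 15 was higher and 0 lower (3.69% and 2.07% of all genes). Fkbp11 and Sdf2l1, a prolyl isomerase and a BiP cofactor of the ER, had the largest differences, 0.46 ± 0.16 and 0.30 ± 0.14 (limma adjusted p = 0.632 and 0.923). The values of Fkbp11, 5.06 to 5.50 in control and 5.60 to 5.81 in stroke, lie near the array medians. Hspa5, which encodes BiP and is named after its value was seen, was at 8.56, 8.74 and 8.76 in control and 8.61, 8.79 and 8.81 in stroke, with overlapping groups (0.05 ± 0.13). Of 13 genes of ER protein degradation, 0 passed (limma; 0 at an unadjusted p under 0.05) with a median of 0.07, and the largest differences were those of Edem1 (0.57 ± 0.28) and Derl1 (0.30 ± 0.13). Control array 2 of Edem1, at 7.10, lay far below the other 2 at 7.93 and 8.26, and without it the difference was 0.23. Of 18 genes of translocation and secretion, 0 passed (limma) with a median of 0.20. At an unadjusted p under 0.05, 4 of the 18 were higher and 0 lower (3.69% and 2.07% of all genes). Ssr3, a subunit of the translocon-associated complex, and Kdelr2, a receptor that returns ER proteins from the Golgi, differed by 0.53 ± 0.15 and 0.52 ± 0.15 (adjusted p = 0.466 and 0.426). In both, all stroke arrays lay above all control arrays, as in 7 of the 18 (6.34% of all genes). In 1 of the 18, Spcs3, a signal peptidase subunit named after its values were seen, they all lay below (-0.17 ± 0.12), as in 4.89% of all genes.

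IRE1 is also known to cut other mRNAs, which lowers them. Of 6 such transcripts measured, 0 passed (limma), and 5 were higher in stroke (47.2% of all genes), with a median of 0.18. At an unadjusted p under 0.05, 2 of the 6 were higher and 0 lower (3.69% and 2.07% of all genes). Pmp22 and Scara3 had the largest differences, 0.59 ± 0.14 and 0.46 ± 0.15 (limma adjusted p = 0.238 and 0.614). In both, all stroke arrays lay above all control arrays (6.34% of all genes).

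**Figure D4:**
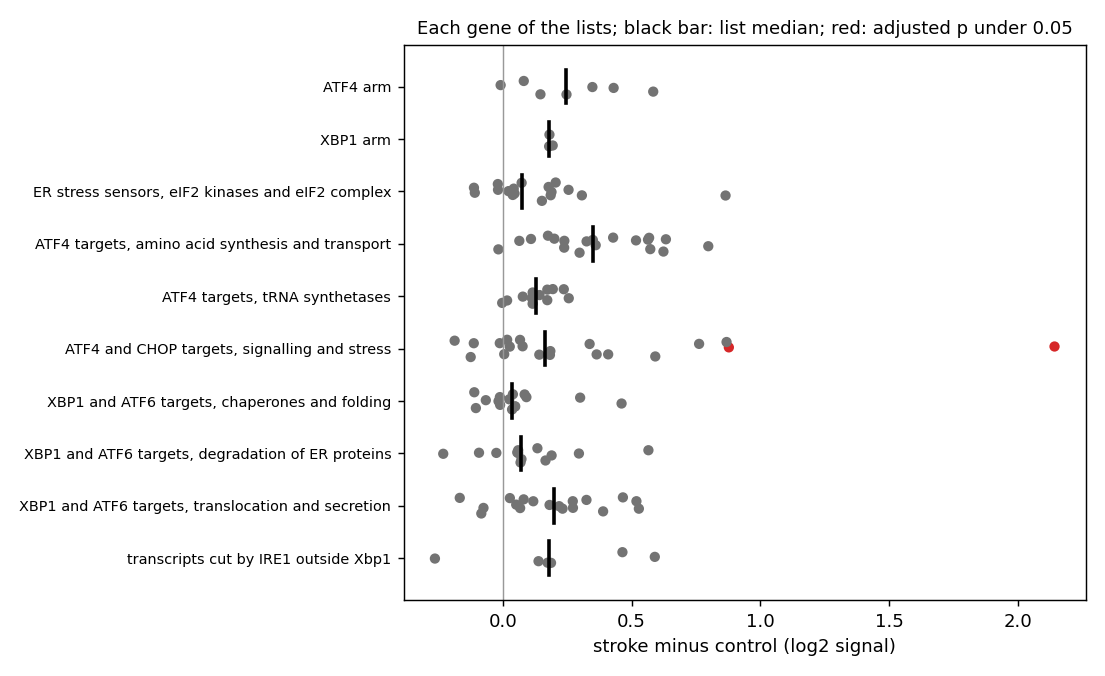
Each point is 1 gene's difference between stroke and control (x axis, log2 signal), by list, with a black bar at the list median and red for genes past the threshold. Atf3 and Nupr1 are the red points, and list medians lie between 0.04 and 0.35.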

How the data were processed

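Per the labels, 100 ng of mRNA from tagged ribosomes went onto each of 6 Affymetrix arrays (MoGene-2_0-st). The value table as deposited holds a log2 signal for 41345 transcript clusters; per the series' design text, the authors processed it with Transcriptome Analysis Console 3.0, and per the file headers the annotation is na36 on mm10. Summarisation and normalization: not given in the sources used here. Per the file headers, the authors' workbook gives log2 averages, a fold score (negative where stroke is lower), a p-value and its false discovery rate.

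Symbols came from the workbook. Left out were 6873 clusters not in it, 2599 without a symbol and 1902 with several; 29971 clusters gave 29458 genes, with the brightest cluster kept for 381 symbols with more than 1. The stroke and control arrays were fitted with limma 3.58.1 (R 4.3.3), two-sided, without a filter, and p-values were adjusted by Benjamini-Hochberg over the 29458 genes. Same-numbered arrays deviated together from their group means (r = 0.299, 0.576 and 0.390 across genes). So did control array 3 with stroke array 1 (0.237) and control array 1 with stroke array 3 (0.128). The other pairs of unlike number ran from -0.460 to -0.308. The numbers may pair the arrays, most clearly those numbered 2, and the labels tie no litter or day to them. The fit without the block is the main one, and standard errors and intervals are from it unless the block is named. The fit was tested on simulated data. Coordinates and promoters are RefSeq's on GRCm38.p6.

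All 10 genes were named whatever their result, with the genes past the threshold or else the 2 largest differences of each wider list, and the 3 genes most like Atf4 and Xbp1 over the 6 arrays. Members and lists were chosen with earlier results of these data known.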

Additional observations from a re-analysis of the deposited data

How the results depend on the processing

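Across 17 alternatives (replicate block, quantile normalization, median centring, 2 signal filters, trend and robust moderation, array weights, mean over clusters, all clusters with a symbol, no moderation, each array left out, and both arrays numbered 2 left out), 0 of the 10 genes passed in any, and the lowest adjusted p was 0.108, for Atf5 with the replicate block. Without moderation 0 of all genes passed in either direction, so that fit could not have called any of the 10. With 1 array left out, 25 to 73 of all 29458 genes rose, against 124 in the main fit. Trib3 falls below the stricter signal filter and has no value there. Atf5 stayed between 0.49 and 0.67 (log2), Chac1 between 0.32 and 0.50, Ppp1r15a between 0.26 and 0.42, Atf4 between 0.18 and 0.36, and Herpud1 between 0.12 and 0.26. Of 169 values, 159 kept their direction and 10 changed sign, all of Ddit3 and Trib3. Ddit3 was -0.0035 with array weights, and from -0.034 to 0.27 with 1 array left out. Trib3 was 0.020 with quantile normalization, 0.036 with array weights, 0.083 without both arrays numbered 2, and from -0.068 to 0.054 with 1 array left out.

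The 2 genes past the threshold among the wider lists became 3 with array weights, with Eif4ebp1 added, 1 with quantile normalization, 0 without moderation, 0 without both arrays numbered 2, and 0 to 1 with 1 array left out. Calls over all genes also changed with the setting. Of all genes, 124 rose in the main fit, 214 with array weights, 121 with quantile normalization and 0 without moderation. Without both arrays numbered 2 it was 70, and with 1 array left out 25 to 73. With the replicate block the count stayed 2, with Eif4ebp1 in place of Nupr1, and besides these and S100a8 and S100a9 the block changed no call of the genes named. Leaving out arrays also leaves fewer samples; the other causes were not tested. For these 10 genes the fold needed to pass ran from 1.80 (Trib3) to 2.38 (Ddit3) without the block. With it the range was 1.73 (Atf5) to 2.02 (Dnajb9).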
